A study of Homo sapiens with 20 samples.

Results

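The SR and hnRNP splicing factor genes were followed through the differentiation of HUDEP-2 cells, an immortalized line of erythroid progenitors derived from umbilical cord blood. They were all gene symbols made of SRSF and a number, or of HNRNP and letters and digits, that had at least 1 transcript with an NM_ identifier, the RefSeq class of curated mRNAs. The rule found 37 genes among the 46425 of the deposited tables, 12 SRSF and 25 HNRNP genes, with 315 of the 170322 transcripts. Another 101 symbols of the same form had no NM_ transcript and were left out. Of the 37 genes, 32 had enough counts to be tested, 11 SRSF and 21 HNRNP genes.

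SR proteins carry a domain rich in arginine and serine repeats, bind exonic enhancers and recruit the spliceosome to nearby splice sites, and hnRNP proteins coat nascent transcripts and often act against them by masking splice sites. Many genes of both families hold a poison exon or an alternative 3′ UTR intron that their own protein promotes, and the resulting transcripts are substrates of nonsense-mediated decay, the pathway that removes mRNAs with a stop codon ahead of an exon junction. RefSeq lists such transcripts as non-coding RNAs under NR_ (curated) or XR_ (predicted) identifiers. Terminal erythroid differentiation is known for programmed changes of splicing and for the condensation and loss of the nucleus, while globin mRNA comes to dominate the cell.

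A stranded mRNA kit was used on wild-type cells of this single line, with 2 libraries on each of 10 days and 20 in all, day 0 being the undifferentiated culture and days 1 to 8 and 12 the later points. All cells first grew in StemSpan SFEM with SCF at 100 ng/ml, EPO at 3 U/ml, dexamethasone at 1 µM and doxycycline at 1 µg/ml. The study lists no dexamethasone for the differentiation medium, so comparisons with day 0 also span its removal, whose part was not tested. The differentiation medium was IMDM with 330 µg/ml holo-transferrin, 5% AB serum, 2 U/ml heparin and 10 µg/ml insulin beside the same EPO, SCF and doxycycline. SCF was withdrawn on day 6 and doxycycline on day 8. Day 8 against day 0 thus also spans the withdrawal of SCF, and day 12 against day 8 that of doxycycline. The part of these withdrawals was not tested. The study assigns day 0 to the proerythroblast stage, days 4 to 6 to early and late basophilic erythroblasts, day 8 to the polychromatic stage and day 12 to orthochromatic cells and reticulocytes. The tables number no replicates, and the pair from each day is called here the separate-day library, from tables that hold some of the days, and the all-day library, from the table of all days, and values are given in that order. The study calls the libraries of days 0 and 8 biological replicates, but neither it nor the labels say whether the pairs came from separate cultures, so p-values measure the spread between these libraries.

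Libraries held 52131713 to 70358198 counts. The separate-day libraries of days 7 and 8 had 18.5% and 17.5% of their counts on genes of ribosomal RNA, and the other 18 had at most 4.08%. All 12 erythroid markers examined were higher on day 8 than on day 0, and their summed TPM (a level per transcript length, on a total common to all libraries) went from 33171 and 33468 on day 0 to between 593972 and 627618 on day 12. The megakaryocyte markers PF4 and PPBP and the lymphocyte markers CD3E and MS4A1 had 0 counts in all libraries, which allows up to 0.0426 to 0.0575 CPM (counts scaled to library size) in a library, for counting error only. ITGA2B was the one gene of the megakaryocyte list above 1 TPM in any library, and that list summed to 10.8 and 69.0 TPM on day 0 and to at most 0.397 TPM on day 8. The lymphocyte list, in which CD3D alone passed 1 TPM, reached at most 2.96 TPM, and the monocyte and macrophage list, led by CD68 and LYZ, ran from 6.65 to 10.1 TPM on day 0, from 2.35 to 3.99 TPM on day 8 and up to 32.0 TPM over all libraries. The mast cell and basophil markers MS4A2, CPA3 and TPSAB1 together were at 537 and 1018 TPM on day 0 and at most 3.10 TPM on day 8, and the part of these differences in the results on splicing factors was not tested.

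The share of non-coding transcripts was compared between days, and the inserted exons that separate several of them from the coding forms were therefore located first. SRSF3, the smallest SR protein and a factor in mRNA export and 3′ end processing, lies on chromosome 6 of hg38 between 36594313 and 36605600. Its transcript NR_036610 (3600 nt) and its coding transcript NM_003017 (4228 nt) differ, beyond their ends, by 456 nt, the length of 1 annotated cassette exon at chr6:36599821-36600276. In the GENCODE transcript SRSF3-203 the reading frame ends inside that exon after 124 codons, 422 bases before its end and with 3 exons downstream. SRSF6, which has a pair of RNA-recognition motifs, has NR_034009 with the same ends as NM_006275 and 268 nt more, the length of the cassette at chr20:43459153-43459420. There the frame of SRSF6-202 ends after 135 codons, with 116 bases of the exon left and 4 exons downstream. For SRSF7, a zinc-knuckle SR protein with a role in mRNA export, the annotated cassette of SRSF7-204 spans chr2:38748898-38749346 on the minus strand, 449 nt, and ends the frame after 137 codons, but it could not be tied to the deposited transcript XR_939708 by length. RefSeq exon coordinates were not used here, so NR_036610 and NR_034009 are tied to these exons by length alone. The lines give the 27 bases around each stop codon from hg38, on the strand of the gene, with the stop in capitals.
SRSF3, chr6:36599840-36599866, plus strand: ctcaccaccctcTGAatctgcattagc
SRSF6, chr20:43459290-43459316, plus strand: gccttttgccatTAGacgcagggtgat
SRSF7, chr2:38749307-38749333, minus strand: agtcagtcgcctTGAttcagaatgtca

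A non-coding transcript each of SRSF2 and HNRNPDL shared both ends with its coding partner and differed in length. These transcripts too are tied to a cassette exon by length alone. SRSF2, a nuclear speckle protein that binds exonic enhancers, has NR_036608, which exceeds NM_001195427 by 104 nt, the length of the cassette at chr17:76735772-76735875. HNRNPDL, an hnRNP D-like protein, has NR_003249, which exceeds NM_031372 by 105 nt, the length of the cassette at chr4:82425563-82425667. In HNRNPA1 and SRSF1 the non-coding forms were shorter than the coding ones, by 2333 nt for NR_135167 and by 621 nt for NR_034041. Among all members, 11 had a GENCODE transcript marked for nonsense-mediated decay whose stop lies in a cassette exon. They include SRSF3, SRSF6, SRSF7, SRSF11 and HNRNPL but not SRSF1, SRSF2, HNRNPA1 or HNRNPDL. They are thus not the same set as the 11 genes of the share result below.

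The 37 genes together took 1.55% to 1.82% of all counts in the 14 libraries of days 0 to 6. They took 0.961% and 1.30% on day 7, 0.853% and 1.32% on day 8, and 0.366% and 0.324% on day 12. The 2 libraries of day 8 lay apart, and the lower one was the library high in ribosomal RNA. Outside globin and ribosomal RNA genes the shares were 1.74% and 1.59% on day 0, 1.17% and 1.48% on day 8, and 0.540% and 0.515% on day 12, so the day 12 libraries stayed below all others on this base as well. Globin genes held 0.859% and 0.819% of the counts on day 0 and 28.2% and 33.7% on day 12. In bulk RNA, fewer cells of a type and less of an RNA per cell cannot be told apart.

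**Figure D1:**
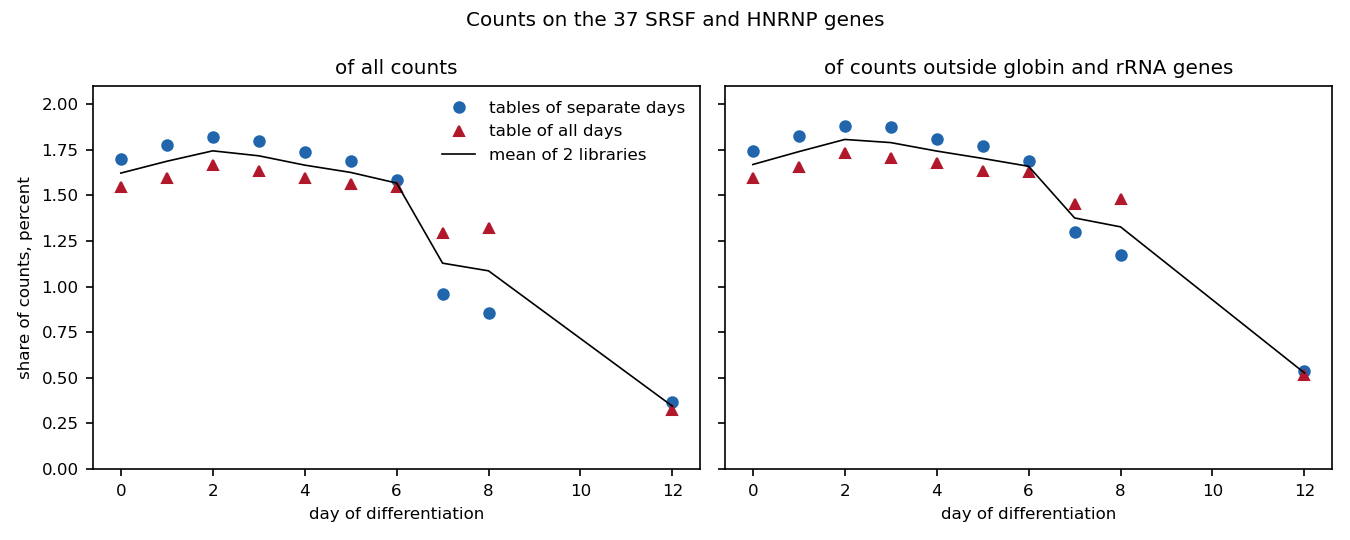
Share of each library's counts on the 37 SRSF and HNRNP genes (y axis, percent) against the day of differentiation, of all counts (left) and of counts outside globin and ribosomal RNA genes (right), with a point per library and a line through the mean of the 2 libraries. The share lay between 1.55% and 1.82% of all counts to day 6 and reached 0.366% and 0.324% on day 12.

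On the TPM scale, which allows levels of different genes to be compared, HNRNPA1, a repressor of exon inclusion that shuttles between nucleus and cytoplasm, was the highest member, with 1523 and 1456 TPM at day 0, 714 and 1181 TPM at day 8 and 92.2 and 72.9 TPM at day 12. The lowest tested member over the days was SRSF8, an intron-poor relative of SRSF2, with 28.4 and 27.1 TPM at day 0, 26.9 and 22.7 TPM at day 8 and 21.6 and 13.9 TPM at day 12. These were the highest and the lowest by the mean over all days, and the order on single days differed. SRSF12 and HNRNPCL2 had 0 counts in all 20 libraries, and HNRNPCL1, HNRNPCL3 and HNRNPCL4, copies of HNRNPC on chromosome 1, had 1, 4 and 2 counts over all libraries.

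All 32 tested members had a TPM on day 12 below all 18 libraries of days 0 to 8, as did 58.3% of the 16784 genes tested. The mean TPM of day 0 over that of day 12 was 7.44-fold in the median member, 36.8-fold for HNRNPA1L2 and 1.57-fold for SRSF8. HNRNPA1L2 is a near-identical copy of HNRNPA1, and its reads are uncertain. The summed TPM of the SRSF genes was 2109 and 2051 on day 0, 1055 and 1373 on day 8, and 412 and 315 on day 12, and that of the HNRNP genes 9498 and 8934, 4027 and 6227, and 1111 and 925. TPM shares a fixed total with globin mRNA, so the counts were also compared after TMM scaling (normalized CPM below). TMM levels a trimmed mean of the genes' log ratios between libraries. The median gene need not be level, and from day 8 to day 12 it had a log2 fold change of -0.20.

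**Figure D2:**
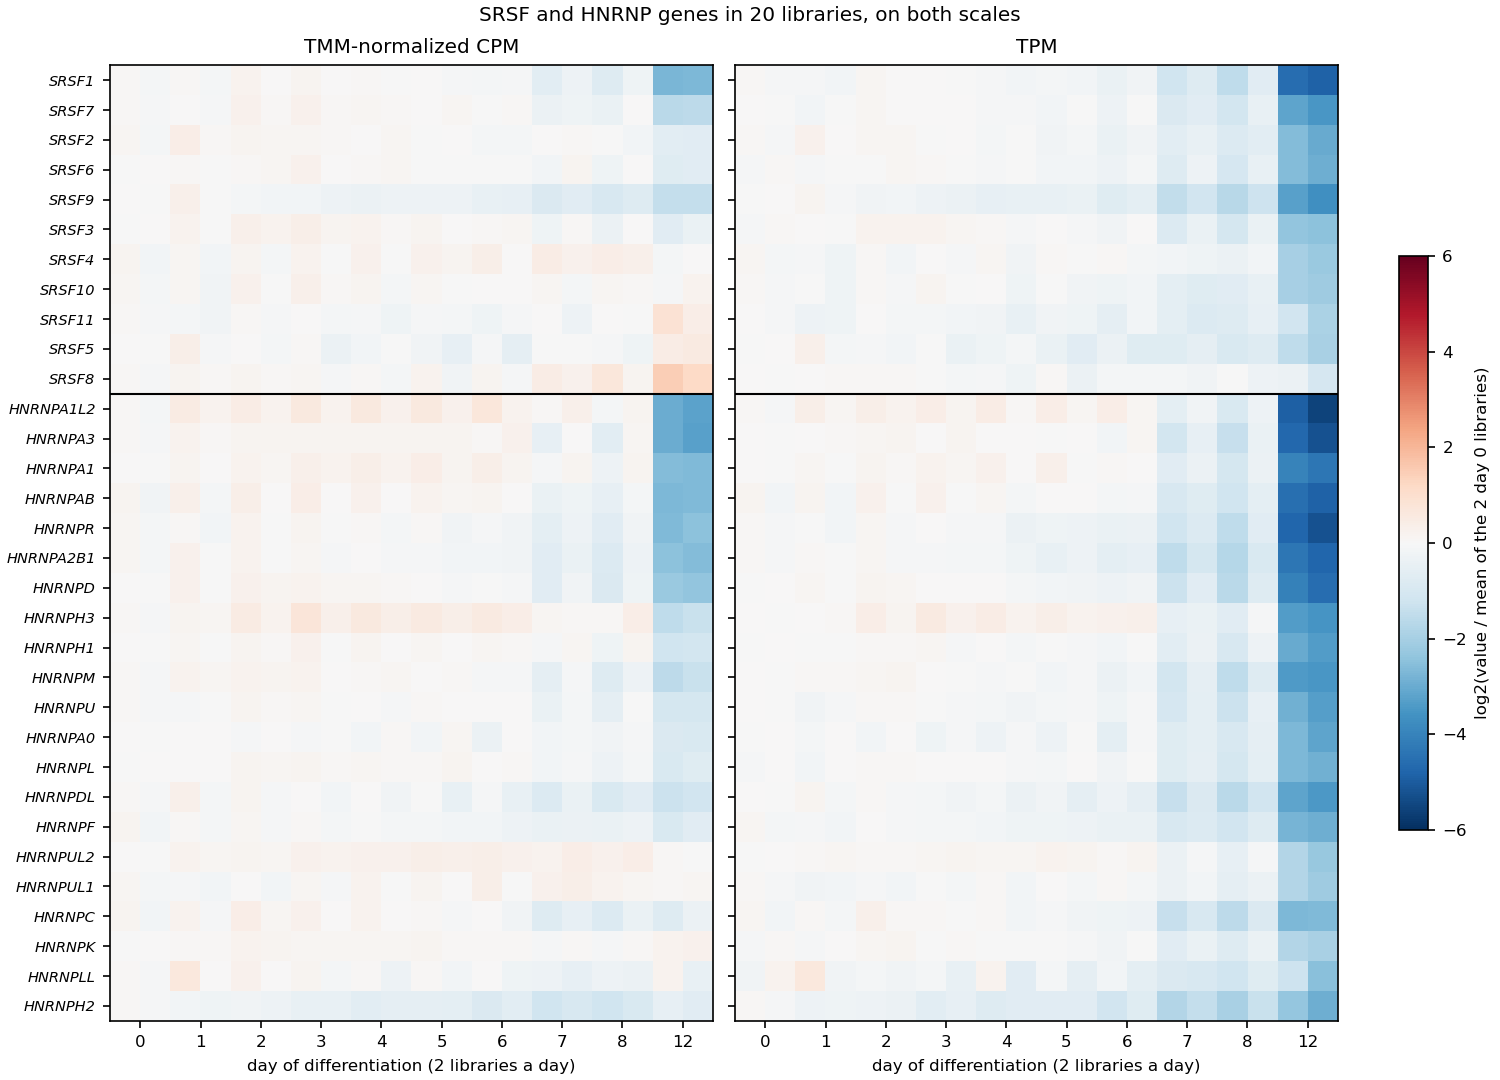
Log2 ratio of each member's value to the mean of its 2 day 0 libraries (colour, from -6 to 6), in TMM-normalized CPM (left) and TPM (right), for the 11 SRSF and 21 HNRNP genes tested in the 20 libraries ordered by day (x axis). On the TPM scale all 32 genes were lower on day 12, while on the normalized CPM scale SRSF5, SRSF8, SRSF11 and HNRNPK had both day 12 libraries above both of day 0.

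The first comparison asked whether the splicing factors already moved at the basophilic stage. Days 4 to 6 against day 0 gave 2 higher and 2 lower members of 32 at an adjusted p under 0.05 (edgeR quasi-likelihood test, Benjamini-Hochberg over all genes, as in every gene comparison below), and of all genes 7.38% were higher and 9.22% lower (16.6% in either direction). The 6 later libraries did not overlap day 0 for 7 members that were higher and 3 that were lower, where 17.1% and 20.2% of all genes did the same. The median log2 fold change of the members was 0.02, against -0.01 for all genes.

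HNRNPH3, a G-run binding protein, was at 211 and 190.2 normalized CPM on day 0, and on days 4, 5 and 6 at 305 and 259.6, 288 and 256, and 288 and 265. All 6 later libraries lay above both of day 0. The log2 fold change was 0.46 ± 0.14 (SE, adjusted p = 0.0349). HNRNPUL2, a relative of the scaffold protein hnRNP U, was at 254 and 250.5 normalized CPM on day 0 and between 299 and 323 on days 4 to 6, again without overlap, a log2 fold change of 0.30 ± 0.086 (adjusted p = 0.0318).

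HNRNPH2, another G-run binding protein, was at 135 and 119 normalized CPM on day 0 and at 80.9 and 88.2, 86.9 and 85.4, and 68.8 and 80.9 on days 4, 5 and 6. No later library reached the level of day 0, and the log2 fold change was -0.63 ± 0.11 (adjusted p = 0.00186). SRSF9, a small SR protein close to SRSF1, went from 96.2 and 93.6 normalized CPM to between 67.1 and 77.8, a log2 fold change of -0.37 ± 0.10 (adjusted p = 0.0247). None of these 4 calls held with every single library left out. Without the separate-day library of day 0, HNRNPH2 had an adjusted p of 0.0548, HNRNPH3 of 0.133, HNRNPUL2 of 0.189 and SRSF9 of 0.199.

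By day 8, 1 member was higher and 8 were lower than on day 0, and 23 did not pass the test, where 17.7% of all genes were higher and 19.4% lower (37.1% together). The median log2 fold change was -0.17 for the members, -0.10 for the 11 SRSF and -0.26 for the 21 HNRNP genes, against 0 for all genes. For 17 members the 2 libraries of day 8 did not overlap those of day 0, 3 higher and 14 lower, where 33.3% and 34.8% of all genes did the same.

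HNRNPH2 had the largest fall, to 55.3 and 68.0 normalized CPM on day 8 from 135 and 119 on day 0, a log2 fold change of -1.04 ± 0.14 (adjusted p = 1.19e-04). SRSF9 followed, at 49.6 and 55.5 normalized CPM after 96.2 and 93.6, a log2 fold change of -0.85 ± 0.13 (adjusted p = 2.26e-04). Both kept the call under all 18 alternatives tried, single libraries left out included. They were the only members that did so in this comparison.

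HNRNPDL was at 292 and 269.7 normalized CPM on day 0 and at 151 and 175 on day 8, a log2 fold change of -0.79 ± 0.20 (adjusted p = 0.00841). HNRNPC, which binds uridine tracts and packages nascent transcripts, went from 932 and 742 to 473 and 641 normalized CPM, -0.59 ± 0.20 (adjusted p = 0.0378). HNRNPA2B1 (RNA transport and processing), HNRNPD (binding of AU-rich elements), HNRNPM and SRSF1, the prototype of the SR family, fell by 0.54, 0.54, 0.53 and 0.48 on the log2 scale, with adjusted p of 0.0276, 0.0367, 0.0281 and 0.0375. The libraries of each of these 6 genes did not overlap between the days, and in all 6 the day 8 library high in ribosomal RNA was the lower of the pair. Without that library the adjusted p was 0.0797 for HNRNPDL and 0.284 for HNRNPC, and 2 members were called in all. Without the separate-day library of day 0 it was also 2, with 0.0536 for HNRNPDL and 0.247 for HNRNPC.

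HNRNPUL2 was the member called higher, at 304 and 329 normalized CPM on day 8 after 254 and 250.5 on day 0, a log2 fold change of 0.32 ± 0.10 (adjusted p = 0.0258). The change turned to -0.046 with library totals in place of TMM and to -0.27 by limma on log2(TPM + 1), where the median of all genes was -0.36 and -0.34. With these scalings 17 and 27 members were called lower and 0 higher, where 27.9% and 39.7% of all genes were called lower and 9.16% and 7.29% higher.

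**Figure D3:**
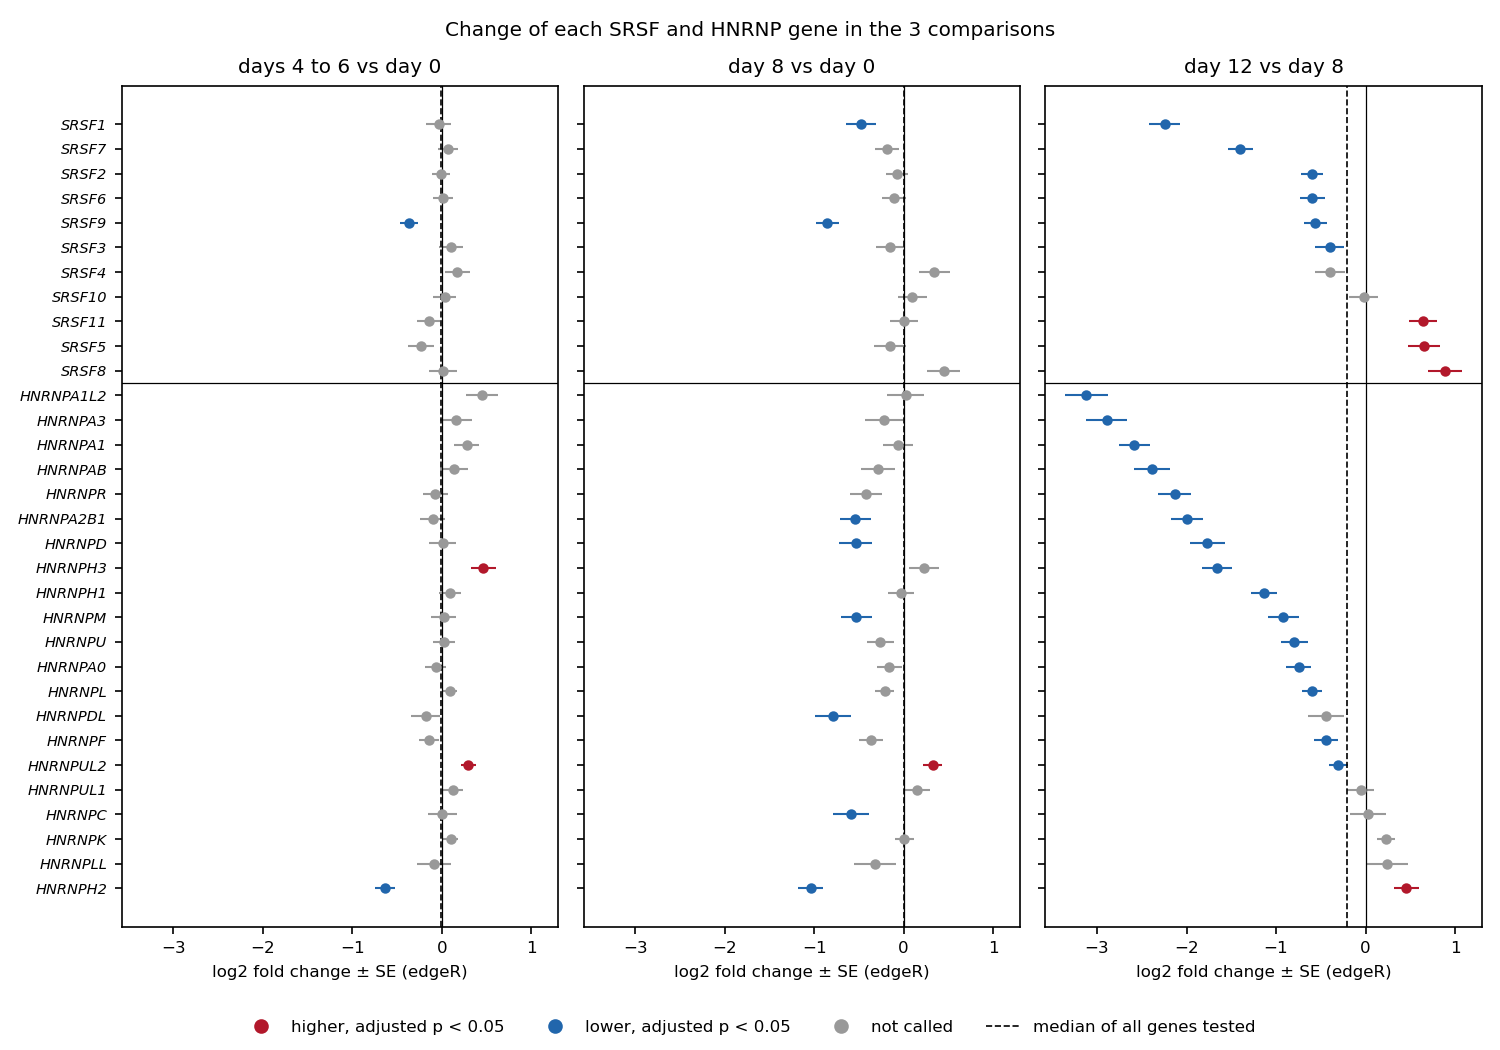
Log2 fold change ± SE (x axis, edgeR on counts) of each of the 32 tested members on days 4 to 6 against day 0, on day 8 against day 0 and on day 12 against day 8, coloured by the call at an adjusted p under 0.05, with the median of all genes as a dashed line. The calls number 4, 9 and 25, and on day 12 they run from -3.12 for HNRNPA1L2 to 0.89 for SRSF8, whose sign depends on the scaling.

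From day 8 to day 12, 21 members were lower and 4 higher, and 7 did not pass the test, where 33.4% of all genes were lower and 23.8% higher (57.2% together). The median log2 fold change was -0.60 for the members, -0.40 for the SRSF and -0.80 for the HNRNP genes, and -0.20 for all genes. The libraries of the 2 days did not overlap for 28 members, 5 higher and 23 lower, where 33.2% and 41.3% of all genes did the same. All 21 falls kept their sign under each of 6 other scalings or tests, and 18 of them stayed called under each of the 6. Leaving out any 1 library also left 18 called, and the exceptions were HNRNPF, HNRNPUL2 and SRSF3.

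HNRNPA1L2, HNRNPA3, HNRNPA1 and HNRNPAB had the 4 largest falls. HNRNPA1 was at 1669.8 and 2333 normalized CPM on day 8 and at 339 and 328 on day 12, a log2 fold change of -2.59 ± 0.17 (adjusted p = 3.82e-08). HNRNPA3, a close paralog of HNRNPA1, went from 404 and 679 to 80.8 and 65.0 normalized CPM, -2.89 ± 0.23 (adjusted p = 1.68e-07). HNRNPAB, an hnRNP of the A and B type that binds single-stranded nucleic acid, went from 300.1 and 389.8 to 64.3 and 67.8, -2.39 ± 0.20 (adjusted p = 3.33e-07). In all of these the 2 libraries of day 12 lay close together and far below day 8. HNRNPA1L2, the uncertain copy, had 24.0 and 29.6 normalized CPM on day 8 and 3.36 and 2.80 on day 12, -3.12 ± 0.24 (adjusted p = 1.17e-07).

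The other hnRNP genes called lower fell less, HNRNPA2B1 and HNRNPA0 of the A and B type among them. HNRNPR, an RNA transport and stability factor, fell by 2.13 on the log2 scale, HNRNPA2B1 by 2.00, HNRNPD by 1.77, HNRNPH3 by 1.66 and HNRNPH1 by 1.13. HNRNPM, HNRNPU (a nuclear scaffold protein), HNRNPA0 and HNRNPL (which binds CA repeats) fell by 0.92, 0.80, 0.74 and 0.60, and HNRNPF and HNRNPUL2 by 0.44 and 0.30. The members without a call included HNRNPK, a poly(C) binding protein known to silence mRNAs in erythroid precursors, with a log2 fold change of 0.23 ± 0.10 (adjusted p = 0.0717). HNRNPC was at 473 and 641 normalized CPM on day 8 and 487 and 647 on day 12, a log2 fold change of 0.03 ± 0.20 (adjusted p = 0.942).

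Among the SR genes, SRSF1 fell most, from 313 and 456 to 80.5 and 82.0 normalized CPM, a log2 fold change of -2.24 ± 0.17 (adjusted p = 1.50e-07). SRSF7 went from 143 and 187 to 62.0 and 63.2 normalized CPM, -1.40 ± 0.14 (adjusted p = 1.42e-06). SRSF2, SRSF6, SRSF9 and SRSF3 fell by 0.60, 0.59, 0.56 and 0.40, the last with an adjusted p of 0.0479. SRSF4 (adjusted p = 0.0623) and SRSF10, a splicing repressor when dephosphorylated (adjusted p = 0.938), were not called.

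SRSF8, SRSF5, SRSF11 and HNRNPH2 were called higher on day 12. SRSF8 was at 76.9 and 53.6 normalized CPM on day 8 and at 131 and 111 on day 12, a log2 fold change of 0.89 ± 0.19 (adjusted p = 0.00109). SRSF5, an SR protein of the SRSF4 and SRSF6 type, went from 181 and 161 to 259.9 and 278 normalized CPM, 0.65 ± 0.18 (adjusted p = 0.00767). SRSF11, which associates with U2AF, went from 192 and 185 to 338 and 250.03 normalized CPM, 0.64 ± 0.16 (adjusted p = 0.00346), and HNRNPH2 from 55.3 and 68.0 to 91.3 and 77.9, 0.46 ± 0.14 (adjusted p = 0.0137).

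These 4 increases held only relative to the bulk of genes. With library totals in place of TMM, where the median of all genes was -1.02, the log2 fold changes were 0.09 for SRSF8, -0.18 for SRSF5, -0.17 for SRSF11 and -0.38 for HNRNPH2. By limma on log2(TPM + 1), with a median of -0.68 for all genes, they were -0.49, -0.86, -0.88 and -0.95. By that test 31 members were lower and 0 higher, where 53.6% of all genes were lower and 8.38% higher, and with library totals 27 were lower and 0 higher, where 48.4% and 11.8% of all genes were. Only SRSF8 stayed called with each single library left out. The adjusted p was 0.0654 for SRSF5 without the all-day library of day 8 and 0.0622 for SRSF11 without the separate-day library of day 12, and 0.145 and 0.144 for HNRNPH2 without the separate-day library of day 8 or of day 12. With NM_ transcripts alone the log2 fold change of SRSF11 was 0.07 and that of SRSF5 0.41, neither of them called.

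The order of the members by mean TPM changed with these differences. HNRNPA1 went from rank 1 of 32 on days 0 and 8 to rank 5 on day 12, and from 13.2% of the members' summed TPM on day 0 to 5.97% on day 12. HNRNPK went from rank 3 to rank 1 and from 7.40% to 16.7%, although its own mean TPM was 835 ± 51.3 at day 0 and 231 ± 24.1 at day 12 (SD, n = 2). SRSF5 went from rank 16 to rank 4 and HNRNPA3 from rank 15 to rank 30. On day 12, HNRNPUL1 at 88.4 ± 15.9 TPM, SRSF5 at 85.3 ± 17.2 TPM and HNRNPA1 at 82.5 ± 13.6 TPM did not differ beyond their spread.

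The next question was which kind of transcript the remaining RNA belonged to. Non-coding NR_ or XR_ transcripts were annotated for 14 members, 9 SRSF and 5 HNRNP genes. For 11 of the 14 their share of the gene's TPM was higher in both day 12 libraries than in any of the 18 libraries of days 0 to 8, where 15.4% of 3068 genes with both kinds of transcript did the same and 5.57% were lower than all. The 3 others overlapped. With shares of counts in place of TPM it was 10 of 14, SRSF5 being the one lost, and with NR_ transcripts alone 7 of 10.

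SRSF3 showed the widest change. Its non-coding share was 5.45% and 7.67% on day 0, between 5.45% and 20.6% over days 0 to 6 with a median of 8.28%, 25.7% and 13.5% on day 8, and 82.5% and 91.9% on day 12. The day 12 shares rest on 6337 and 7906 counts for NR_036610 and 1582 and 816 counts for the coding transcript. In TPM the coding transcript went from 87.5 and 159.9 on day 8 to 8.34 and 3.59 on day 12, a mean 20.7-fold lower, and the non-coding one from 30.3 and 25.0 to 39.3 and 40.8. NR_036610 thus made up most of the SRSF3 RNA of day 12, at a TPM within its range of 12.9 to 59.3 over days 0 to 8. TPM shares a fixed total with globin mRNA, so levels and folds in TPM, here and in the genes below, depend on that scale. Over all transcripts, SRSF3 was 3.29-fold lower on day 12 than on day 8 in mean TPM and 1.32-fold lower in normalized CPM. For SRSF2 these folds were 4.24 and 1.52.

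SRSF2 went the same way, with a non-coding share of 4.90% and 6.65% on day 0, 25.2% and 14.1% on day 8, and 75.9% and 72.3% on day 12. The mean TPM of its coding transcripts was 13.3-fold lower on day 12 than on day 8, while the non-coding ones were at 60.3 and 37.5 TPM and then at 51.9 and 36.7 TPM. NR_036608 alone held 60.4% and 47.9% of the gene's TPM on day 12. In both SRSF2 and SRSF3 the separate-day library of day 8, the one high in ribosomal RNA, had the higher share of the 2.

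SRSF7 held between 22.6% and 41.4% on its non-coding transcripts over days 0 to 8, with 29.4% and 31.7% on day 8, and 76.4% and 73.5% on day 12. Here both kinds were lower on day 12 in mean TPM, the coding ones 16.6-fold and the non-coding ones 2.45-fold. SRSF1 went from 10.7% and 6.73% on day 8 to 26.6% and 52.4% on day 12, so its 2 libraries of day 12 lay far apart. Its coding TPM was 18.7-fold lower, at 7.83 and 4.05 TPM.

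The hnRNP genes HNRNPDL, HNRNPA1 and HNRNPL had the same direction at different levels. HNRNPDL went from 34.7% and 39.1% on day 8 to 71.6% and 83.1% on day 12, with a mean coding TPM 10.2-fold lower. HNRNPA1 went from 5.57% and 2.30% to 45.4% and 53.5%, with a mean coding TPM 21.7-fold lower and non-coding values of 39.8 and 27.2 TPM on day 8 and 41.9 and 39.0 TPM on day 12. On days 0 to 5 the separate-day libraries of HNRNPA1 held 10.2% to 13.5% and the all-day libraries 1.35% to 3.11%, so the 2 sets of tables differed for this gene. HNRNPL held at most 3.19% over days 0 to 8 and 9.07% and 13.2% on day 12.

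SRSF6, SRSF11, SRSF5 and SRSF8 were the remaining genes above all earlier libraries. None of them was called from day 8 to day 12 in the tests of transcripts and ratios below. SRSF6 held 40.7% to 74.4% on non-coding transcripts over days 0 to 8 and 80.0% and 87.8% on day 12, of which NR_034009 accounted for 18.5% and 14.9% of the gene's TPM. SRSF11 went from 6.30% and 2.47% on day 8 to 11.5% and 26.0%, SRSF5 from 33.7% and 30.5% to 34.0% and 52.4%, and SRSF8 from 15.8% and 18.8% to 21.7% and 35.3%.

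**Figure D4:**
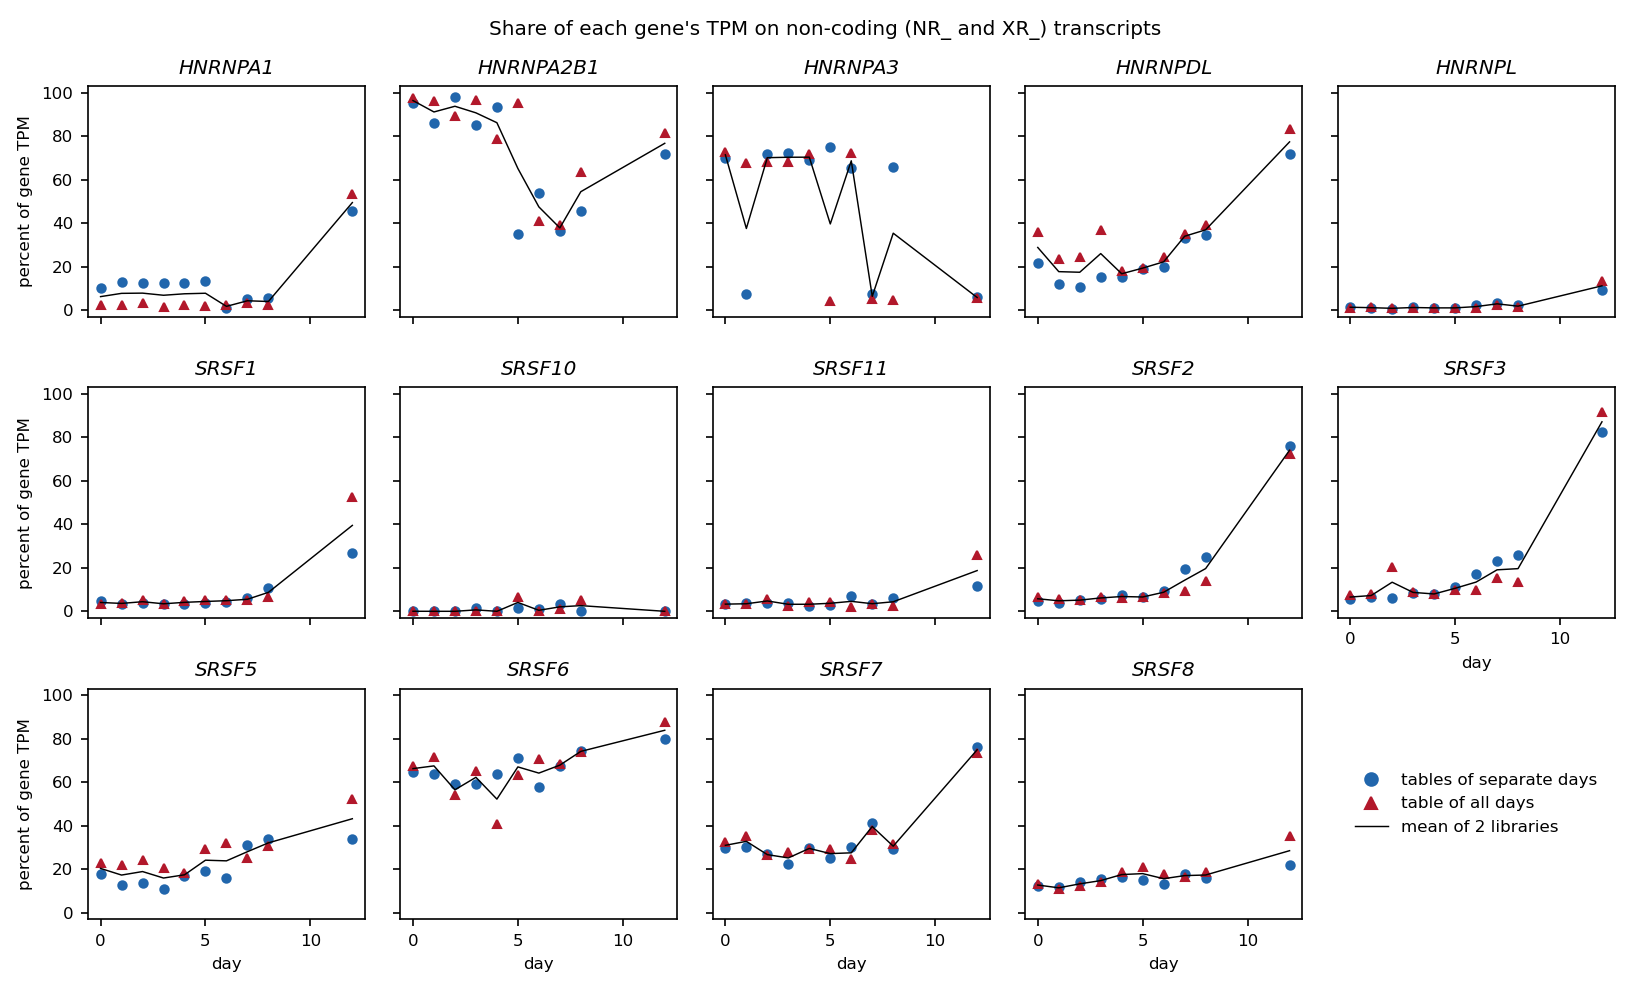
Share of each gene's TPM on its NR_ and XR_ transcripts (y axis, percent) against the day, for the 14 members that have such transcripts, with a point per library and a line through the mean. For 11 genes both day 12 points lie above all earlier points, and HNRNPA2B1, HNRNPA3 and SRSF10 overlap.

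HNRNPA2B1, HNRNPA3 and SRSF10 showed no such separation. HNRNPA2B1, with 24 annotated transcripts, ranged from 35.2% to 98.2% over days 0 to 8 and was at 71.9% and 81.6% on day 12. HNRNPA3 was at 4.05% to 75.2% over days 0 to 8, with 65.9% and 4.80% in the 2 libraries of day 8, and at 6.06% and 5.49% on day 12. SRSF10 had a non-coding share of 0% in both libraries of day 12 and of up to 6.68% before. For HNRNPA3 the 2 libraries of day 8 thus spanned most of its range over days 0 to 8.

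**Figure D5:**
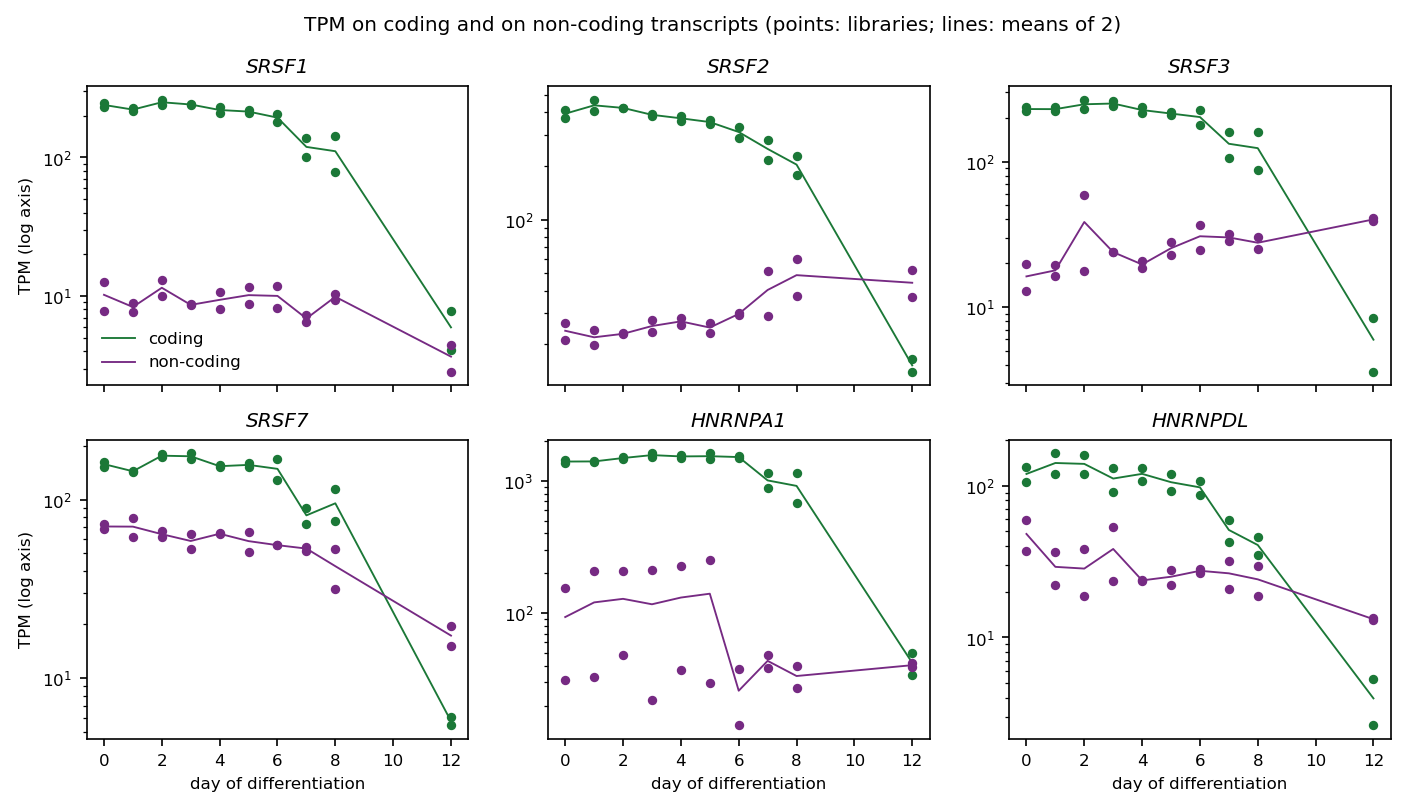
TPM on coding (green) and non-coding (purple) transcripts of 6 members against the day, on log axes, with a point per library and lines through the means. Mean coding TPM was 10.2-fold to 21.7-fold lower on day 12 than on day 8. The non-coding means went from 27.7 to 40.1 TPM for SRSF3, from 48.9 to 44.3 TPM for SRSF2 and from 42.4 to 17.3 TPM for SRSF7. TPM shares a fixed total with globin mRNA, so these levels and folds depend on that scale.

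Single transcripts were tested with edgeR's diffSpliceDGE, which sets the change of a transcript against that of its whole gene. From day 8 to day 12, 3 of the members' 53 non-coding transcripts tested were called higher (5.66%) and 1 lower (1.89%), in 3 of the 14 genes, where 2.79% of 8861 non-coding transcripts were called higher and 3.18% lower. NR_135167 of HNRNPA1 had a log2 change of 4.26 relative to the whole gene (adjusted p = 7.43e-04). XR_001744672 and XR_001744670 of HNRNPA2B1 had 5.62 and 5.10 (adjusted p = 0.0276 and 0.0364), although they held only 0.616% and 3.57%, and 0.822% and 2.72%, of the gene's TPM on day 12. Both lost the call in the quasi-likelihood fit (adjusted p = 0.0889 and 0.112) and by voom (adjusted p = 0.612 and 0.618). The lower one was NR_034035 of SRSF10, at -10.3 (adjusted p = 0.00659), which had 348 counts in the all-day library of day 8 and 0 counts in the other library of day 8 and in both of day 12.

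NR_036610 of SRSF3 had a log2 change of 2.37 (adjusted p = 0.0770) and NR_036608 of SRSF2 of 2.82 (adjusted p = 0.0859), neither called. NR_034009 of SRSF6 had 0.46 and was not called either. The diffSplice function of limma sets a transcript against the other transcripts of its gene. The sizes of its changes are therefore not on the measure of diffSpliceDGE. By voom and diffSplice of limma, NR_036608 of SRSF2 had 3.01 (adjusted p = 5.69e-09), NR_036610 of SRSF3 4.96 (adjusted p = 7.95e-05), XR_939708 of SRSF7 2.86 (adjusted p = 1.10e-05) and NR_003249 of HNRNPDL 2.45 (adjusted p = 0.0451), while NR_135167 of HNRNPA1 had an adjusted p of 0.178. A further pair of SRSF2 transcripts was called in opposite directions, XR_429914 higher (3.61, adjusted p = 4.73e-04) and XR_002958054 lower (-1.62, adjusted p = 0.0369). Voom thus called 5 of the 53 transcripts higher (9.43%) and 1 lower (1.89%), where 2.23% and 1.32% of all were, and none of them was a transcript that diffSpliceDGE called. From day 0 to day 8, edgeR called 1 of the 53 transcripts higher (1.89%) and 0 lower, where 2.09% and 1.95% of all were called. It was NR_034035 of SRSF10 (log2 change 6.77, adjusted p = 0.0401), again with 348 counts in a single library. The share called was thus near that of all transcripts. Voom called 2 higher and 1 lower there, in HNRNPA2B1 and SRSF2, where 0.722% and 0.643% of all were called.

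A further test, chosen after seeing the data, pooled the transcripts of each kind and compared the log2 ratio of non-coding to coding counts per gene by limma. From day 8 to day 12, 5 of the 14 members had a higher ratio and 0 a lower one, where 4.39% of 3188 genes had a higher and 2.45% a lower ratio. The log2 changes were 4.97 ± 0.73 for SRSF3 (adjusted p = 0.00209), 3.30 ± 0.45 for SRSF7 (adjusted p = 0.00151), 3.16 ± 0.57 for SRSF2 (adjusted p = 0.00670), 2.82 ± 0.56 for HNRNPL (adjusted p = 0.0113) and 2.80 ± 0.60 for SRSF1 (adjusted p = 0.0167). HNRNPDL had 2.60 ± 0.73 (adjusted p = 0.0548) and HNRNPA1 4.71 ± 1.48 (adjusted p = 0.0784). SRSF6, SRSF11, SRSF5 and SRSF8 had 0.903, 2.14, 0.648 and 0.905 (adjusted p = 0.404, 0.0939, 0.649 and 0.327). The median change was 2.37 for the 14 members and 0.52 for all genes.

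SRSF3 and SRSF7 kept this call with each single library left out. Without the all-day library of day 8 the adjusted p was 0.0682 for SRSF2, 0.0843 for HNRNPL and 0.124 for SRSF1, and without the all-day library of day 12 it was 0.0564 for HNRNPL and 0.0956 for SRSF1. From day 0 to day 8 the ratio test of limma called 0 members, and 0.0627% of all genes in each direction, where diffSpliceDGE called 1 and voom 2. At an unadjusted p under 0.05, 2 members had a higher ratio and 1 a lower one, where 4.64% and 3.01% of all genes did. These were SRSF2 at 2.07 ± 0.57 (adjusted p = 0.336), SRSF3 at 1.75 ± 0.73 (adjusted p = 0.603) and HNRNPA2B1 at -4.75 ± 1.56 (adjusted p = 0.499).

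Genes that act with these factors were counted in the same gene comparisons. Of all genes, 17.7% were higher and 19.4% lower on day 8, and 23.8% higher and 33.4% lower on day 12. By limma on log2(TPM + 1), 7.29% were higher and 39.7% lower on day 8, and 8.38% and 53.6% on day 12. With library totals it was 9.16% and 27.9%, and 11.8% and 48.4%. These shares stand beside every list below, and whether a list differed from them was not tested. Of 14 tested kinases, phosphatases and carriers of SR proteins, 3 were higher and 5 lower on day 8 than on day 0, and 5 were higher and 6 lower on day 12 than on day 8. CLK1 and CLK3, nuclear kinases that phosphorylate the RS domain, were higher in both, by 1.75 ± 0.33 and 1.22 ± 0.22 on the log2 scale on day 8 (adjusted p = 0.00121 and 8.66e-04) and by a further 2.94 ± 0.35 and 2.40 ± 0.23 on day 12 (adjusted p = 6.95e-06 and 9.23e-07). The cytoplasmic kinase SRPK2 fell by 1.99 and then by 2.47, SRPK1 fell by 2.78 from day 8 to day 12, and TNPO1, a nuclear import receptor, fell by 0.77 to day 8. These directions were the same under the 6 scalings and tests tried.

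Of 41 core components of the spliceosome, 0 were higher and 20 lower on day 8 than on day 0 (median -0.48), and 10 were higher and 19 lower on day 12 than on day 8 (median -0.45). With library totals or TPM, 0 were higher in either comparison. SNRPN and PRPF4 had the largest falls to day 8 (-1.27 and -0.97), and SNRPD1 and SNRPF, Sm proteins of the snRNPs, fell by 3.86 and 3.45 to day 12. SF3B1, of the U2 snRNP, rose by 1.30 ± 0.13 on the log2 scale to day 12 (adjusted p = 1.49e-06), and SNRPN had 1.41, which was -0.00 by limma on log2(TPM + 1).

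Of 11 SR-related genes, 0 were higher and 2 lower on day 8 (PNN at -0.58 and U2SURP at -0.51), and 4 were higher and 3 lower on day 12. With library totals the day 12 counts were 0 higher and 6 lower, and by limma on log2(TPM + 1) 0 higher and 11 lower. PNN and TRA2B fell by 1.15 and 0.97 to day 12, and RBM39 and LUC7L3 had 0.92 and 0.71, which turned to -0.60 and -0.68 by limma on log2(TPM + 1). Of 19 hnRNP proteins and other RNA-binding proteins with other symbols, 4 were higher and 4 lower on day 8, and 3 were higher and 11 lower on day 12. By limma on log2(TPM + 1) the counts were 0 higher and 13 lower on day 8, and 0 higher and 16 lower on day 12, so the increases named next were not called on that scale. CIRBP, a cold-inducible RNA-binding protein, rose by 1.00 and then by 1.71, and PCBP1, a poly(C) binding protein, rose by 1.82 to day 12. HDGF, a growth factor that the list also holds, rose by 0.79 to day 8. SYNCRIP and RBMX fell by 0.88 and 0.45 to day 8, and RBMX and RBM3 by 2.84 and 2.00 to day 12.

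Of 15 tested tissue-specific splicing regulators, 2 were higher and 2 lower on day 8, and 3 were higher and 6 lower on day 12. By limma on log2(TPM + 1) it was 2 higher and 4 lower on day 8, and 2 and 7 on day 12. With library totals it was 2 higher and 3 lower on day 8, and 2 and 9 on day 12. RBM38, which promotes erythroid exon inclusion, rose by 2.60 and then by 2.77, and MBNL2 by 2.11 and 2.48. CELF2 fell by 4.84 and then by 3.61, to a mean of 0.50 normalized CPM on day 12. RBM47 fell by 3.62 to day 8 and RBFOX2 by 3.78 ± 1.19 to day 12 (adjusted p = 0.0147). Of 17 genes of nonsense-mediated decay, 1 was higher and 2 were lower on day 8 (XRN1 at 1.35, UPF3A at -0.67 and UPF3B at -0.53), and 8 were higher and 4 lower on day 12, a median of 0.45. CASC3, of the exon junction complex, had 1.05 on day 12 and -0.40 by limma on log2(TPM + 1), with 0 genes of this list higher and 16 lower on that scale. MAGOHB, of the same complex, and SMG9 fell by 2.93 and 1.12.

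Promoters were described from the RefSeq windows of 250 bases before to 50 bases after the start of each gene (GRCh38.p14), found for 34 of the 37 members and 27305 genes in all. CACGTG, the E-box core, read on both strands, occurred in 7 of the 34 (20.6%) and in 7.43% of all windows, and CCAAT in 17 of the 34 and in 35.7% of all. TATAAA occurred in 14.7% of members and 11.95% of all, and CCGGAAG in 14.7% and 10.7%. TGACGTCA, AGATAA and the NRF1 palindrome occurred in 0 members, against 1.98%, 10.5% and 1.36% of all windows, and the median GC content was 63.5% for members and 58.3% for all.

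The members with CACGTG were HNRNPA3, HNRNPD, HNRNPDL, HNRNPH2, HNRNPH3, HNRNPM and HNRNPUL1. From day 8 to day 12 their log2 fold changes were -2.89, -1.77, -0.44, 0.46, -1.66, -0.92 and -0.05, so genes with the motif were among the lower, the higher and the uncalled members alike. The matches of 4 members called lower on day 12 and the first of 2 matches of HNRNPH2 are shown with 20 bases on either side, on the strand of the gene, with the motif in capitals.
HNRNPA3, chr2:177212703-177212748, plus strand: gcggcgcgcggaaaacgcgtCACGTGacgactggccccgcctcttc
HNRNPD, chr4:82373993-82374038, minus strand: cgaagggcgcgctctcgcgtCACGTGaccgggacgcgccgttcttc
HNRNPH3, chr10:68331623-68331668, plus strand: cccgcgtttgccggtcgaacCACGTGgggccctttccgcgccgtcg
HNRNPM, chr19:8444913-8444958, plus strand: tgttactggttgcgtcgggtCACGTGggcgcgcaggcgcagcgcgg
HNRNPH2, chrX:101408160-101408205, plus strand: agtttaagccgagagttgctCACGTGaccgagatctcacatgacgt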

How the data were processed

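RNA-seq was available for 20 libraries, 2 on each of 10 days. Per the submitters' processing notes and the study's methods, trimming used Trimmomatic (0.38), alignment to hg38 used HISAT2 (2.1.0), and RefSeq transcripts were quantified by StringTie (2.1.3b). The authors deposited read counts per transcript without normalization, TPM scaled to a common total per library, and FPKM, which were not used. How reads shared by transcripts were divided is not given in the sources used here, so levels of overlapping transcripts of a gene are estimates. Of the columns, 40 were read and 23 were not used (all FPKM, and a surplus day 0 set).

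Counts were summed by gene symbol. Gene comparisons used edgeR 4.0.16 (filterByExpr, TMM, glmQLFit, glmQLFTest) with all libraries in a single fit and a coefficient per day, and Benjamini-Hochberg adjustment over all genes, called below 0.05. The SE of a log2 fold change was taken as its size over the root of the F statistic. Transcript usage used diffSpliceDGE after glmFit. DESeq2 1.42.0 and limma 3.58.1 on log2(TPM + 1) and log2(TPM + 0.1) were alternatives, with other scalings, filters and library sets, the set of tables as a block, and each library left out in turn. The test of the log2 ratio of non-coding to coding counts (0.5 added to each), the quasi-likelihood fit for usage, the fits without the libraries high in ribosomal RNA and the 2 other share definitions were added after seeing the data. The scripts were tested on simulated data.

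The members and the gene lists were chosen with earlier results of these data known. Values in every library are given for up to 4 members with the largest increase and 4 with the largest decrease in each comparison, among those called, averaging 10 counts or more and not overlapping between days, and for the highest and the lowest tested member. From each list the 2 largest called increases and decreases are named, apart from an item that is not reported here. The other members named in full were chosen after their values were seen. Depth was 52131713 to 70358198 counts per library, and a count of 0 allows up to 3 counts.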

Additional observations from a re-analysis of the deposited data

How the results depend on the processing

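No paired analysis was possible because the deposited columns carry no replicate numbers, so the pairs across days are not known. A block for the set of tables rests on no replicate number and takes all separate-day tables as a single set. With this block the count of members called was 12 in place of 9 for day 8 against day 0. It was 5 in place of 4 for days 4 to 6 against day 0. For day 12 against day 8 it was 28 in place of 25. For day 8 against day 0 the count was 27 and 26 by limma on log2(TPM + 1) and on log2(TPM + 0.1), 17 with library totals, 3 with only the days compared, 3 without the libraries high in ribosomal RNA, and 2 to 12 with each library left out. For days 4 to 6 it was 2 and 2 by limma, 1 with library totals, 1 with no filter beyond 1 count, and 0 to 3 with each library left out. For day 12 it was 16 with only the days compared, 22 to 31 under the others and 21 to 24 with each library left out. For usage to day 8 it was 1, and 2 by voom, 2 with the block, 2 with only the days compared, 0 by the quasi-likelihood fit, 0 by the ratio test, 0 to 2 with each library left out and 0 in the ratio test with each left out. For usage to day 12 it was 3, and 6 with at least 10 counts in every library, 5 by the ratio test, 2 by the quasi-likelihood fit, 1 to 2 with each library left out and 2 to 5 in the ratio test. The share result was 7 of 10 genes with NR_ transcripts alone. Of 318 values of named members under alternatives, 252 kept the direction and the call, 52 kept the direction only and 14 reversed. Reversed values with library totals were -0.046 for HNRNPUL2 on day 8, and -0.18, -0.17 and -0.38 for SRSF5, SRSF11 and HNRNPH2 on day 12. On log2(TPM + 1) and log2(TPM + 0.1) they were -0.27 and -0.27 for HNRNPUL2, -0.49 and -0.51 for SRSF8, -0.86 and -0.87 for SRSF5, -0.88 and -0.90 for SRSF11, and -0.95 and -0.98 for HNRNPH2. These alternatives differ from TMM in what they hold level, and the cause of the other changes was not tested. How reads were divided among transcripts that share sequence is a limit on the usage results that was not tested.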

Other observations

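HNRNPA3 was split between its transcripts in 2 ways. Its non-coding share of TPM was 65.9% in the separate-day library and 4.80% in the all-day library of day 8, while the gene as a whole was at 113 and 220.1 TPM there. Over days 0 to 8 the share had a lowest value of 4.05% and a highest of 75.2%, with a median of 69.4% over days 0 to 6. HNRNPA2B1 had a median of 91.4% over days 0 to 6 and values of 45.4% and 63.5% on day 8. For both genes the summed counts entered the gene comparisons, and the split did not.

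The 4 SRSF genes with the largest non-coding share on day 12 were SRSF3, SRSF6, SRSF7 and SRSF2, at means of 87.2%, 83.9%, 74.9% and 74.1%. SRSF10, at 0% there, and SRSF11, at 18.7%, were the lowest of the 9 SRSF genes with such transcripts. In HNRNPDL the mean was 77.4%.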
